A study of Mus musculus with 48 samples.

Results

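The genotype comparison in liver at thermoneutrality is described here across all genes. It sets 4 liver libraries of mice with angiotensinogen deleted in hepatocytes (hepAGT-/-, KO) against 4 of littermates without the deletion (hepAGT+/+, WT), and the 8 libraries were taken by their labels from the 48 of the series. All 8 mice were male, were housed at 30 °C (thermoneutral, TN) and ate a Western diet with 21% milk fat and 0.2% cholesterol over 12 weeks, so that the heat and the diet were common to both groups. The animals carry the numbers 1, 6, 7 and 24 (WT) and 2, 4, 5 and 22 (KO). The same genotypes at room temperature (RT, 20 to 22 °C), another 8 liver libraries of other mice, serve as a further set of values, and the series also covers brown and epididymal white fat, not used here. The promoter or Cre line behind the hepatocyte deletion, and the part of the gene removed, are not given in the sources used here.

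Angiotensinogen is secreted mainly by hepatocytes. Renin, an enzyme from the kidney, cuts it to angiotensin I, which angiotensin-converting enzyme turns into angiotensin II, a peptide that constricts vessels and acts on fat, liver and immune cells through the type 1 receptor. A Western diet loads the liver with triglyceride, and hepatocytes respond through fatty acid desaturation, storage in droplets, export in lipoproteins and oxidation in mitochondria and peroxisomes. At thermoneutrality a mouse spends little energy on heat.

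Genes lower in KO livers included the desaturase gene Scd1, the fatty acid transporter gene Cd36 and the peroxisomal oxidation genes Ehhadh and Hsd17b4. In 3 lists of fatty acid synthesis, storage and oxidation, 4 of 25, 7 of 38 and 8 of 38 genes were called, all lower. Pcx, of pyruvate carboxylation, Ppp1r3b, of glycogen control, and Mttp, of lipoprotein assembly, were lower as well. Higher in KO were the 2 overlapping ribonuclease genes Rnase4 and Ang, 35 of 79 genes of cytosolic ribosomal proteins, and 8 of 46 interferon-induced genes. Of 17594 genes tested, 560 (3.18%) were called, that is, edgeR's quasi-likelihood test gave a Benjamini-Hochberg adjusted p under 0.05. Of these, 235 (1.34% of the genes tested) were higher in KO and 325 (1.85%) lower. DESeq2, run as an alternative, called 1111 genes (6.31%). An unadjusted p under 0.05 was found for 3099 genes (17.6%), where 880 would be under it by chance alone. The change was 2-fold or more in 88 of the higher and 35 of the lower genes. The WT and KO libraries did not overlap in 506 of the 560 called genes, which compares with 12.5% of all genes tested (6.23% with KO above and 6.22% with KO below). Leaving out 1 library left between 178 (without KO 4) and 497 (without KO 5) calls, with 213 without WT 6.

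**Figure D1:**
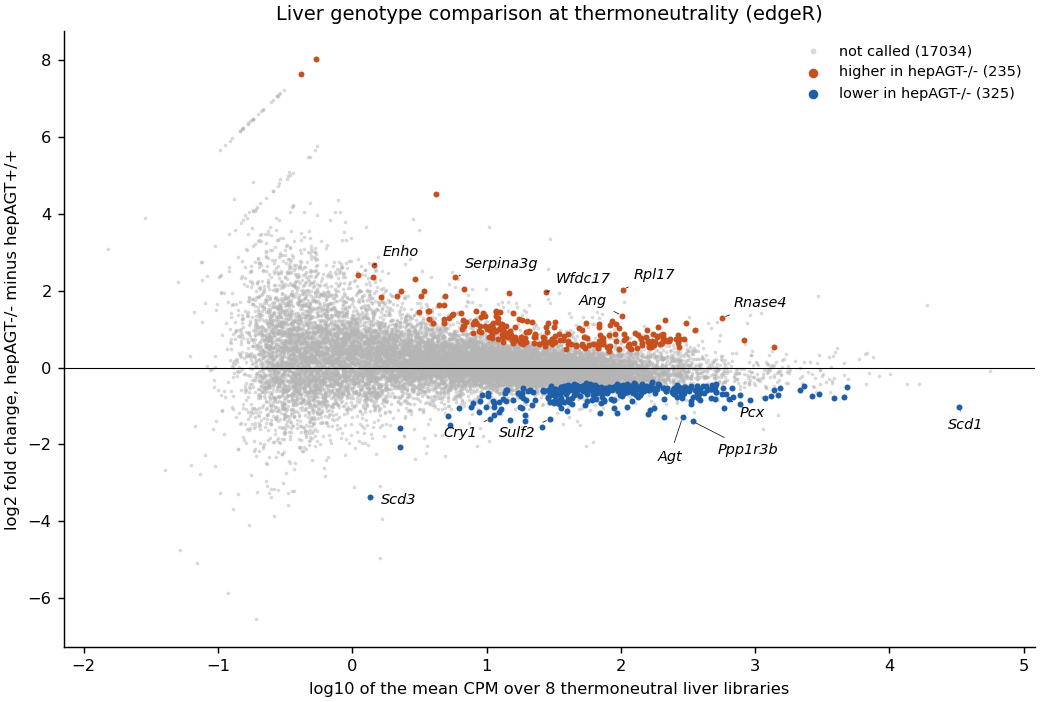
The log2 fold change KO minus WT of each of 17594 genes (vertical axis) against the log10 of its mean CPM over the 8 libraries (horizontal axis), with the 235 genes called higher in orange, the 325 called lower in blue and genes not called in grey. Scd1 is the most abundant of the labelled genes, and most of the points past 4 on the vertical axis are genes near 0 CPM that were not called.

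Total counts ran from 27445079 (KO 22) to 36503849 (WT 7) per library, and levels are given as counts per 1000000 counts of the library (CPM) with edgeR's TMM scaling, which uses a trimmed mean of log ratios. Hepatocyte markers summed to 80560 to 99737 CPM in WT and 80831 to 101980 CPM in KO. Markers of skeletal muscle summed to 0.127 to 0.338 CPM in WT and 0.938 to 2.40 CPM in KO, with 5 of 8, Acta1 among them, at 0 in all 8 libraries. Those of pancreas summed to 0 to 0.135 CPM in WT and 0.121 to 1.24 CPM in KO, with 9 of 12, Prss1 among them, at 0 in all 8. Those of adipocytes, where Adipoq was at 0 in all 8, summed to 2993 to 4612 CPM in WT and 2225 to 2869 CPM in KO. That last sum was mostly Car3, a carbonic anhydrase, which was called lower at a log2 difference of -0.69 ± 0.17 SE (adjusted p = 0.0267), a call lost without KO 4, 5 or 22 or without WT 1 or 6 (adjusted p up to 0.0983). No other tested marker of these 3 lists was called, and the part of such cells in the results was not tested. Identifiers with no name in the gene table took 0.266% to 2.31% of the counts in WT and 2.41% to 3.72% in KO, and mitochondrial transcripts took 3.51% to 4.16% in WT and 2.74% to 3.59% in KO. The genes called higher had a median exon length of 2527 bases and those called lower one of 5599 bases, against 3707 for all genes tested. After each library's trend of level with exon length had been removed, an alternative added after the data were seen, 487 genes were called, 403 of them among the 560. In a bulk sample, fewer cells of a type and less RNA per cell cannot be told apart.

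Agt (chr8:124556534-124569706, minus strand, GRCm38), the targeted gene, was counted in every library. Its level was 504, 371, 454 and 309 CPM in the WT and 164, 172, 125 and 207 CPM in the KO livers. All KO livers lay below all WT livers and none was near 0. The log2 fold change was -1.29 ± 0.18 SE (adjusted p = 0.00113), with leave-one-out values from -1.42 to -1.18. Counts cover the whole gene, so the exons that remained in KO were not analysed. The 59 bases around a match to the STAT site TTCNNNGAA, the palindromic letters that STAT transcription factors are known to bind, are shown for Agt because the gene is the one removed. They lie at chr8:124569845-124569903 (minus strand, GRCm38.p6, from RefSeq), with the match in capitals beginning 172 bases before the start.
Agt: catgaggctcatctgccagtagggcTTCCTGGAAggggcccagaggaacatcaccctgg

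Of 12 tested genes of the renin-angiotensin list, 3 were called, all lower, and the targeted Agt is 1 of them. Of all genes tested, 1.85% were called lower. The median log2 change of the list was 0.09, against 0.05 for all genes tested. Besides Agt the called genes were 2 membrane peptidases that cut angiotensin peptides. Mme, which encodes neprilysin, stood at 99.0, 139, 93.1 and 56.5 CPM in the WT and 32.9, 52.9, 50.6 and 32.9 CPM in the KO livers, a log2 difference of -1.20 ± 0.23 SE (adjusted p = 0.00997). The lowest WT liver, WT 24, remained just above the highest KO liver. Anpep, the gene of aminopeptidase N, changed by -0.67 ± 0.17 SE (adjusted p = 0.0316), with 1 WT library, WT 24 at 104 CPM, inside the KO range of 80.5 to 105 CPM. The Anpep call was lost without KO 2, 4 or 22 or without WT 1, 6 or 7 (adjusted p up to 0.101). The receptor genes Agtr1b and Agtr2 had no count in the 8 libraries.

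Rnase4 and Ang, which encode secreted ribonucleases (ribonuclease 4 and angiogenin), rose in KO. Ang was chosen after its values had been seen, because it overlaps Rnase4. Rnase4 (chr14:51091077-51106151, plus strand) stood at 379, 338, 294 and 308 CPM in the WT and 602, 746, 783 and 1107 CPM in the KO livers, a log2 difference of 1.30 ± 0.19 SE (adjusted p = 0.00126). All 4 KO levels exceeded the highest WT level, and KO 22 was highest. Ang (chr14:51091150-51102009, plus strand) stood at 68.1, 56.2, 60.0 and 46.0 CPM in the WT and 166, 109, 181 and 132 CPM in the KO livers, a log2 difference of 1.35 ± 0.23 SE (adjusted p = 0.00622). Its groups did not overlap either, but here KO 5 and KO 2 led. Both calls held with each of the 8 libraries left out in turn (adjusted p up to 0.00781 and 0.0279). Per kilobase of exon, Rnase4 averaged 201 CPM in WT and 494 in KO, and Ang 47.9 and 122. RefSeq gives both genes a transcript that starts at the same base, so the sequence before it belongs to both. Reads in the exons that the 2 genes share could be counted for either or for neither of them. The 100 bases before that start, chr14:51090977-51091076 on the plus strand (GRCm38.p6), are shown because they are common to both genes that rose.
Rnase4 and Ang: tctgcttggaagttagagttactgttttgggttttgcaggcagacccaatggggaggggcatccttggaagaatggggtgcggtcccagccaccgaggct

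**Figure D2:**
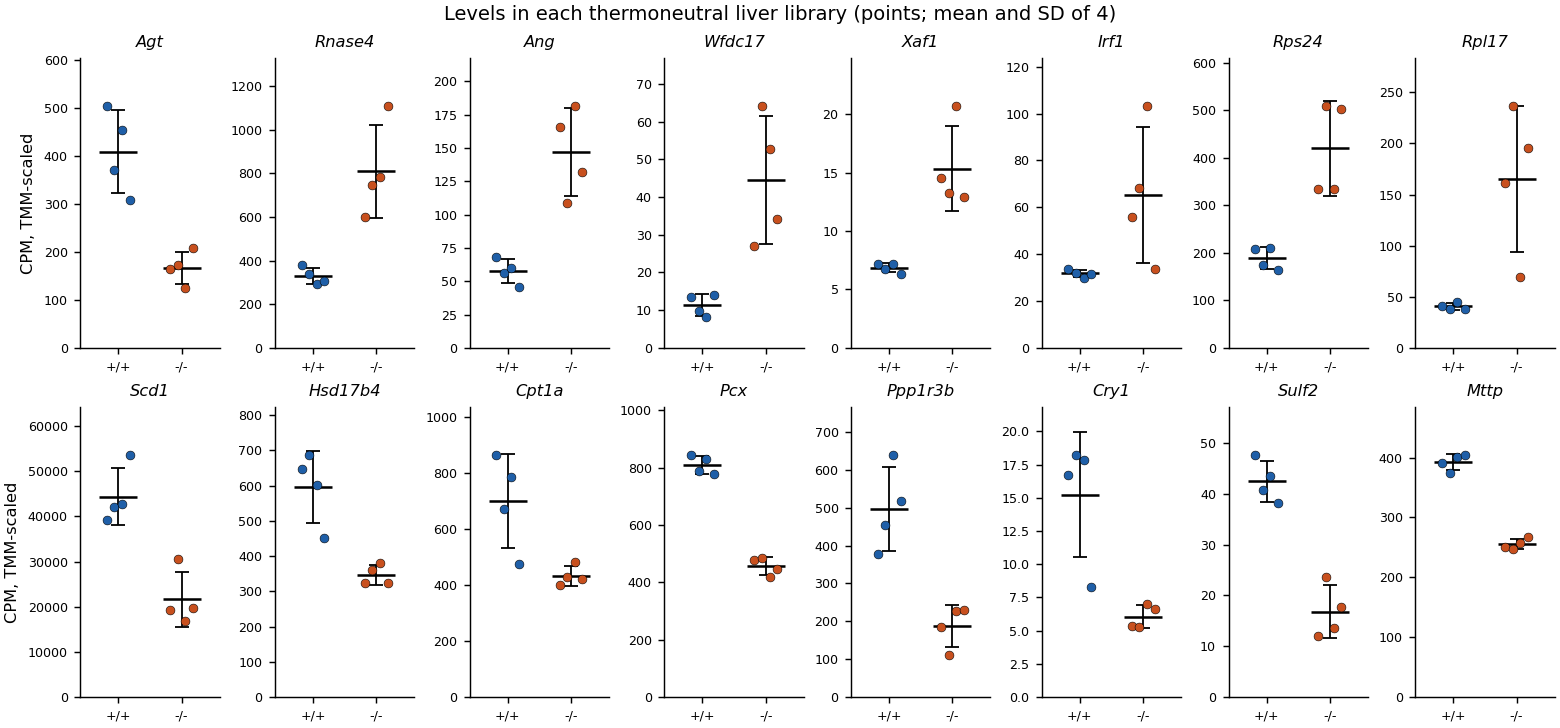
TMM-scaled CPM of 16 genes in each of the 8 thermoneutral liver libraries (points, +/+ in blue and -/- in orange, axes from 0), with the mean as a long bar and the SD of 4 libraries as whiskers. The groups overlap only in Cpt1a, where the lowest WT liver is WT 24 at 477 CPM.

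Of 46 tested members of the list of interferon-induced genes, 8 were called, all higher, where 1.34% of all genes tested were called higher. All 46 had a log2 change above 0, as did 54.5% of all genes tested. Their median log2 change was 0.95. Without KO 5 the median fell to 0.53, and 42 of 46 remained above 0. The number of members called ran from 2 (without KO 4, WT 6 or WT 7) to 15 (without KO 22). The list summed to 1247, 1139, 1178 and 1030 CPM in WT and to 1524, 2218, 3835 and 1318 CPM in KO, so that the groups did not overlap and KO 5 was highest.

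Xaf1, whose product binds the apoptosis inhibitor XIAP, stood at 7.18, 6.80, 7.18 and 6.32 CPM in the WT and 14.6, 13.3, 20.7 and 12.9 CPM in the KO livers, a log2 difference of 1.16 ± 0.20 SE (adjusted p = 0.00432). All KO livers lay well above all WT livers. Nlrc5, the transactivator of MHC class I genes, stood at 32.0, 38.8, 27.9 and 40.2 CPM in the WT and 52.1, 77.0, 89.1 and 53.9 CPM in the KO livers, a log2 difference of 0.97 ± 0.19 SE (adjusted p = 0.00825). Those groups were also apart, with the highest values in KO 5 and KO 4. Irf1, an interferon regulatory factor (chr11:53770014-53778374, plus strand), stood at 33.5, 32.0, 29.9 and 31.6 CPM in the WT and 56.0, 68.4, 103 and 33.6 CPM in the KO livers, a log2 difference of 1.04 ± 0.23 SE (adjusted p = 0.0192). KO 22 was barely above the highest WT liver, and the Irf1 call was lost without KO 4, WT 1, WT 6 or WT 7 (adjusted p up to 0.0677). Irf8, the myeloid member of the family, changed by 1.12 ± 0.29 SE (adjusted p = 0.0374) and Ifi35 by 0.75 ± 0.18 SE (adjusted p = 0.0223). Both groups were apart in these genes, and both calls were lost in several of the leave-one-out fits (adjusted p up to 0.137 and 0.0711). Rtp4 changed by 0.94 ± 0.25 SE (adjusted p = 0.0458), with 1 KO library inside the WT range, and its call was lost without any of 7 libraries (all but KO 22).

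Among the genes with the greatest change were further immune genes. Wfdc17, a small secreted protein of macrophages (chr11:83703991-83706268), stood at 13.5, 9.72, 8.25 and 14.1 CPM in the WT and 27.1, 64.0, 52.6 and 34.2 CPM in the KO livers, a log2 difference of 1.97 ± 0.24 SE (adjusted p = 0.00113). The lowest KO level, in KO 2, was well clear of the highest WT level, and the call held without each library (adjusted p up to 0.0045). Serpina3g, a serine protease inhibitor of leukocytes, stood at 2.58, 2.40, 1.46 and 1.20 CPM in the WT and 5.19, 13.0, 16.2 and 4.82 CPM in the KO livers, a log2 difference of 2.36 ± 0.39 SE (adjusted p = 0.00336). KO 5 and KO 4 were again highest. Saa3, an acute-phase protein, stood at 4.15, 7.69, 5.22 and 7.04 CPM in the WT and 11.9, 42.5, 21.3 and 17.0 CPM in the KO livers, a log2 difference of 1.94 ± 0.46 SE (adjusted p = 0.0334), and that call was lost without KO 4 or 5 or any WT library (adjusted p up to 0.0978). The acute-phase list as a whole had 2 of 35 members called, Serpina3g and Saa3, and a median of -0.04. Of all genes tested, 1.34% were called higher. Ptpn18, Ms4a4b, Gimap3 and S100a8 were higher by 1.86 to 2.42 on the log2 scale, and each of these calls was lost without some library (adjusted p up to 0.0872 to 0.125). Lyz2, the lysozyme gene of myeloid cells, was picked after its values had been seen and stood at 63.7, 44.9, 53.5 and 46.3 CPM in the WT and 64.4, 162, 155 and 101 CPM in the KO livers, a log2 difference of 1.21 ± 0.24 SE (adjusted p = 0.0117). KO 2 was just above the highest WT library and KO 4 and KO 5 were far above it. Tyrobp, an adaptor of myeloid and natural killer receptors picked in the same way, changed by 1.41 ± 0.29 SE (adjusted p = 0.0137), a call lost without KO 4 or WT 6 (adjusted p up to 0.0549).

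No list of immune cell markers had more than 1 called member, where 1.34% of all genes tested were called higher. The summed levels did not overlap between the groups for T and NK, B and plasma and dendritic cells. They did for macrophages and neutrophils. Sums of some other lists, such as those of hepatokine and of glycogen genes, did not overlap either. Markers of T and NK cells summed to 7.81, 6.1, 7.29 and 6.4 CPM in WT and to 13.3, 30.3, 55.4 and 9.51 CPM in KO. All 13 tested markers had a log2 change above 0, with a median of 1.85, and none was called. Some were near 0 in WT, such as Cd3d with 0 to 0.270 CPM in WT and 0.364 to 2.91 CPM in KO. Such markers could pass the filter on low counts through KO libraries, so their sign is not independent of that filter. Markers of Kupffer cells and other macrophages summed to 306 to 476 CPM in WT and 426 to 1177 CPM in KO, with 1 of 13 called, Vsig4, at a log2 difference of 1.06 ± 0.28 SE (adjusted p = 0.0489). Markers of B and plasma cells summed to 15.7 to 29.0 CPM in WT and 30.6 to 63.0 CPM in KO, with 1 of 11 called, Ighm, at a log2 difference of 1.44 ± 0.36 SE (adjusted p = 0.0327). Neutrophil markers summed to 1.77 to 6.44 CPM in WT and 5.77 to 8.11 CPM in KO, with 1 of 8 called, S100a8. That call was lost in every leave-one-out fit, with no filter on low counts and with the length trend removed. None of 8 dendritic cell markers and none of 13 markers of lipid-associated macrophages and monocytes was called. The Vsig4 and Ighm calls were each lost without KO 4, KO 5, WT 6, WT 7 or WT 24 (adjusted p up to 0.141 and 0.116). Both were also lost in the fit to the 8 libraries compared. The Vsig4 call was lost as well with RLE scaling, with no filter on low counts and with the length trend removed. KO 4 and KO 5 led the sums for T, B and macrophage markers and for interferon-induced genes. The part of a different cell content in these results was not tested.

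**Figure D3:**
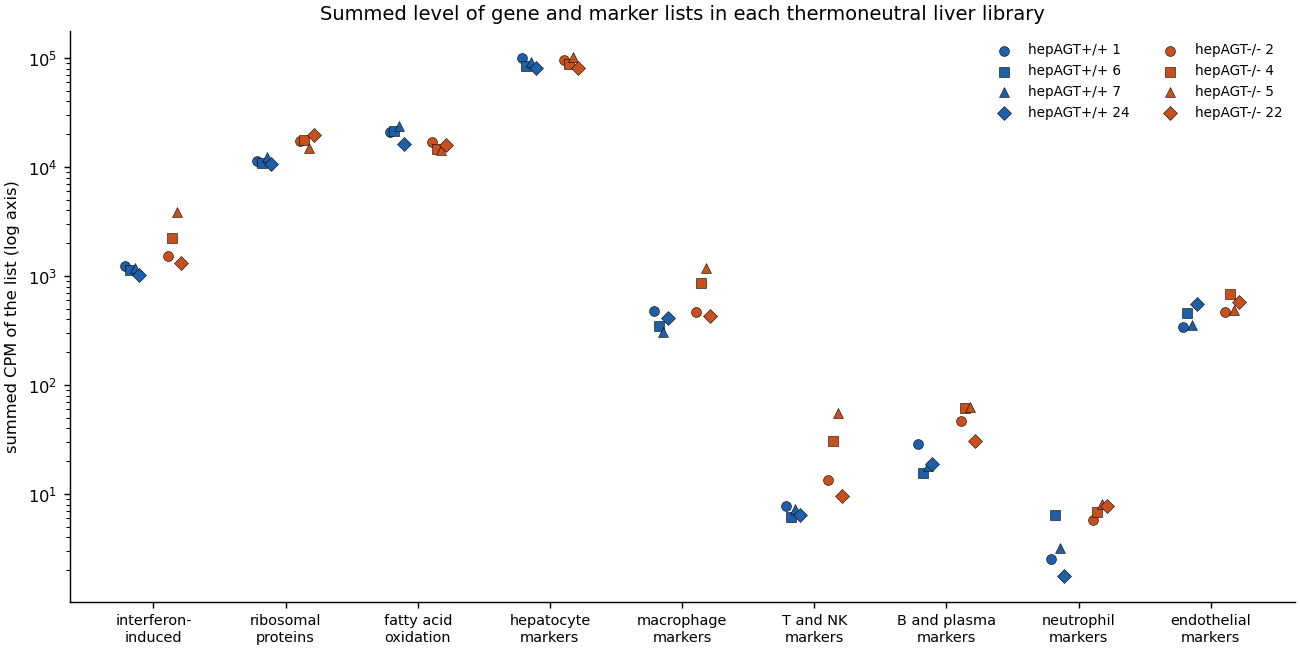
Summed CPM (log axis, plain library totals) of 3 gene lists and 6 cell type marker lists in each of the 8 libraries, 1 symbol per mouse, WT in blue and KO in orange. Hepatocyte markers overlap between the groups, whereas the T and NK markers, the B and plasma cell markers, the interferon-induced genes and the ribosomal protein genes are higher in all KO libraries.

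The letters GAAANNGAAA, the core of the interferon-stimulated response element that IRF and STAT complexes are known to bind, were searched on both strands in the 250 bases before each RefSeq start. They occurred in 14 of 174 genes called higher that had a promoter entry (8.05%), in 6 of 244 called lower (2.46%) and in 389 of 11485 tested genes (3.39%). For TTCNNNGAA the shares were 7.47%, 6.56% and 7.33%. A match is a description of letters and no evidence of binding, and the 14 genes include ribosomal protein genes such as Rps7 and Rpl5. None of the 14 belongs to the list of interferon-induced genes described above. The stretches below come from called-higher genes that carry these letters, chosen after the values had been seen, and the matches are in capitals. They are written in the direction of the gene, so that a match on the other strand reads TTTCNNTTTC.
Irf1: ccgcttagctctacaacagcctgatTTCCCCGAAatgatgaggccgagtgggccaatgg
Irf8: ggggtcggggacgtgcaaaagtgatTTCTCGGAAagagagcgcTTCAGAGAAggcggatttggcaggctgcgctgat
Serpina3g: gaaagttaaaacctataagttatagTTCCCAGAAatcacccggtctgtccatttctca
Trim30a: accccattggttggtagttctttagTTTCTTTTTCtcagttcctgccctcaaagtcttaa
Trim30d: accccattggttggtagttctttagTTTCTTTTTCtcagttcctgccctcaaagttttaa
Mndal: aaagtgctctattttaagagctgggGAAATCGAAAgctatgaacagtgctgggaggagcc
Serpinb9: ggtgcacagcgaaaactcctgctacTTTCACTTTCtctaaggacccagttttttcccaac
Saa3: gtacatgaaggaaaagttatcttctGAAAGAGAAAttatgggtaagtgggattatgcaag
In Irf1 (chr11:53769899-53769957) the STAT letters begin 90 bases before the start, in Irf8 (chr8:120736162-120736238) 171 and 153 bases before it, and in Serpina3g (chr12:104236089-104236146) 33 bases before it. Trim30a (chr7:104465195-104465254) and Trim30d (chr7:104507856-104507915), neighbouring genes of antiviral TRIM proteins, carry nearly the same sequence, and their counts could be split between such near copies. Mndal (chr1:173880189-173880248) encodes an interferon-inducible DNA-binding protein, Serpinb9 (chr13:33004470-33004529) an inhibitor of granzyme B, and Saa3 lies at chr7:46715767-46715826.

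Trim30a stood at 9.77, 6.04, 8.50 and 8.14 CPM in the WT and 11.4, 22.0, 19.4 and 9.45 CPM in the KO livers, a log2 difference of 0.94 ± 0.25 SE (adjusted p = 0.0446), with KO 22 inside the WT range. Trim30d changed by 1.08 ± 0.29 SE (adjusted p = 0.0402) and Serpinb9 by 0.86 ± 0.23 SE (adjusted p = 0.0471), both with groups that did not overlap. Mndal stood at 11.9, 15.1, 15.2 and 14.4 CPM in the WT and 22.5, 37.6, 31.1 and 18.9 CPM in the KO livers, a log2 difference of 0.96 ± 0.21 SE (adjusted p = 0.0139). Its KO livers were all above its WT livers, and the call was lost without KO 4 only (adjusted p = 0.0776). The other 3 calls were lost in 6 or 7 of the 8 leave-one-out fits (adjusted p up to 0.191, 0.139 and 0.145).

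The list of cytosolic ribosomal proteins, the protein parts of the translating ribosome, held the most calls of all lists. Of its 79 tested genes, 35 were called, all higher, where 1.34% of all genes tested were called higher. In 46, all KO libraries were above all WT libraries (6.23% of all genes tested), and 79 had a log2 change above 0. The median log2 change was 0.52. Their sum was 11429, 10922, 12432 and 10692 CPM in WT and 17257, 17747, 14835 and 19708 CPM in KO, so that KO 5 was lowest of the KO livers here and KO 22 highest, unlike the order in the immune sums. With the length trend removed, 32 were called higher and the median was 0.38, with 5 of 79 below 0. The list is of short genes, with a median exon length of 1770 bases. Left-out libraries gave 18 (without KO 4 or WT 6) to 40 (without KO 5) calls. These proteins have many processed pseudogenes, and reads of a gene and its copies may be split in counting.

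Rps24 (chr14:24487125-24496959) stood at 208, 175, 211 and 164 CPM in the WT and 334, 509, 334 and 503 CPM in the KO livers, a log2 difference of 1.15 ± 0.18 SE (adjusted p = 0.00321). KO 4 and KO 22 were close to 500 CPM and the other 2 KO livers at 334 CPM, all above WT. Rps18 stood at 208, 172, 202 and 169 CPM in the WT and 318, 349.6, 277 and 418 CPM in the KO livers, a log2 difference of 0.86 ± 0.14 SE (adjusted p = 0.00321). All KO livers were again above all WT livers, here with KO 22 highest and KO 5 lowest of the KO livers. Rps15a stood at 83.7, 88.0, 77.0 and 75.1 CPM in the WT and 126, 131, 137 and 154 CPM in the KO livers, a log2 difference of 0.76 ± 0.12 SE (adjusted p = 0.00321), and had a narrow spread in both groups that did not meet. Rps7, Rpl35 and Rpl12 were higher by 0.84, 0.79 and 0.86 on the log2 scale. Rpl17 had the greatest change of the list, at 41.2, 38.1, 45.0 and 38.0 CPM in the WT and 162, 236, 68.9 and 196 CPM in the KO livers, a log2 difference of 2.03 ± 0.37 SE (adjusted p = 0.0138). KO 5 was the lowest KO liver and still above WT. The calls of these 7 genes held without each library. Rpl41 and Rpl5, 2 of the most abundant genes called higher, changed by 0.99 ± 0.25 SE (adjusted p = 0.0366) and 0.74 ± 0.16 SE (adjusted p = 0.0131). The Rpl41 call was lost without KO 4, KO 22 or any WT library, and the Rpl5 call without KO 4 (adjusted p up to 0.12 and 0.0533).

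Of the nuclear-encoded subunits of oxidative phosphorylation, 5 of 75 were called higher and 3 lower, with a median of 0.20. Over all genes tested, 1.34% were called higher and 1.85% lower. The higher calls fell to 0 without KO 4, KO 22, WT 6 or WT 24 and to 1 without WT 1. The small subunits Uqcrh and Ndufb9, of complexes III and I, changed by 0.81 ± 0.20 SE (adjusted p = 0.0276) and 0.70 ± 0.17 SE (adjusted p = 0.0298), and Atp5l of the ATP synthase by 0.87 ± 0.21 SE (adjusted p = 0.03). The larger subunits Sdha, of succinate dehydrogenase, and Ndufs1 and Ndufa10 fell. Sdha stood at 623, 588, 612 and 535 CPM in the WT and 429.7, 422, 403 and 359.5 CPM in the KO livers, a log2 difference of -0.55 ± 0.11 SE (adjusted p = 0.00948), with groups apart. Of these 6 genes the call of Sdha alone held without each library (adjusted p up to 0.0329). None of 13 mitochondrially encoded transcripts was called, and 11 had a log2 change below 0, with a list median of -0.36. After removal of the length trend 4 nuclear-encoded subunits were called higher and 2 lower, and the median of that list was 0.06.

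**Figure D4:**
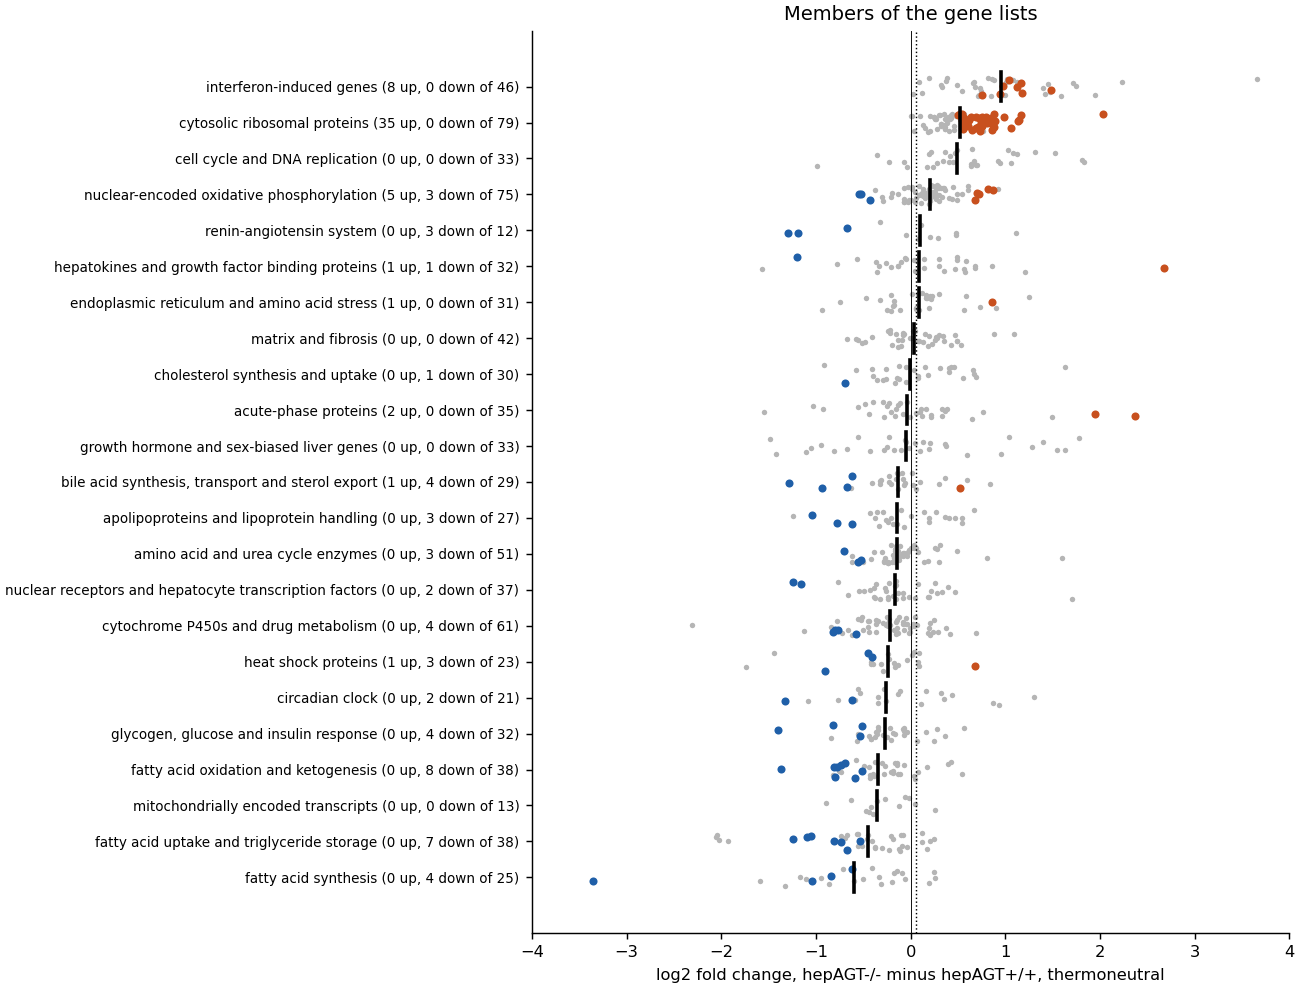
The log2 fold change of each tested member of 23 gene lists (points, with called members in orange for higher and blue for lower) and the list median (black bar), with lists ordered by their median and the dotted line at the median of all genes tested. All members of the ribosomal protein and interferon lists lie right of 0, and the called members of the fatty acid lists all lie left of it.

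In the list of fatty acid synthesis and desaturation 4 of 25 genes were called, all lower, where 1.85% of all genes tested were called lower. The median log2 change was -0.60. Leaving out 1 library left 2 or 3 calls. Scd1 (chr19:44394455-44407879, minus strand), which encodes stearoyl-CoA desaturase and took the highest level of any gene called, stood at 39205, 42070.0, 42664 and 53507 CPM in the WT and 19267, 30654, 16813 and 19642 CPM in the KO livers, a log2 difference of -1.04 ± 0.21 SE (adjusted p = 0.0102). KO 4 was the highest KO liver and was still below WT 1. Elovl5, an elongase of polyunsaturated fatty acids, stood at 899.8, 1112, 1594 and 1120.3 CPM in the WT and 625, 818, 629.6 and 562 CPM in the KO livers, a log2 difference of -0.84 ± 0.18 SE (adjusted p = 0.0146). The groups did not meet, and the call was lost without WT 7 (adjusted p = 0.0572). Gpd1, which supplies glycerol 3-phosphate, changed by -0.62 ± 0.17 SE (adjusted p = 0.0492), and Scd3 by -3.36 ± 0.92 SE (adjusted p = 0.0483), with 0 to 0.541 CPM in KO. Both calls were lost in 6 of the 8 leave-one-out fits (adjusted p up to 0.151 and 0.191). Fasn, the fatty acid synthase, was not called, at 526, 882, 1295 and 4169.9 CPM in the WT and 702, 510.0, 557 and 515 CPM in the KO livers and a log2 difference of -1.59 ± 0.60 SE (adjusted p = 0.182). WT 24 alone stood far above the rest, and without it the median of the list was -0.28. Srebf1, the transcription factor of the pathway, was not called either, at a log2 difference of -0.51 ± 0.22 SE (adjusted p = 0.224).

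In the list of fatty acid uptake and triglyceride storage, 7 of 38 genes were called, all lower (1.85% of all genes tested were), with a median of -0.45. The number called ran from 3 (without WT 1 or WT 7) to 14 (without WT 24). Agpat2, an acyltransferase of triglyceride synthesis, stood at 294, 256, 313 and 342 CPM in the WT and 192, 200.4, 138 and 224 CPM in the KO livers, a log2 difference of -0.67 ± 0.14 SE (adjusted p = 0.0115). Fitm2, which helps droplets to bud from the endoplasmic reticulum, stood at 122, 135, 145 and 79.5 CPM in the WT and 46.8, 60.8, 52.1 and 72.8 CPM in the KO livers, a log2 difference of -1.05 ± 0.22 SE (adjusted p = 0.0138). Neither gene had overlapping groups, and both calls held without each library. Cd36 stood at 226, 268, 252 and 158 CPM in the WT and 76.7, 136, 93.5 and 116 CPM in the KO livers, a log2 difference of -1.10 ± 0.23 SE (adjusted p = 0.0159). WT 24 was the lowest WT liver and still above KO 4, and the call was lost only without WT 6 (adjusted p = 0.0544). Pparg, the nuclear receptor that drives Cd36 and droplet genes, changed by -1.24 ± 0.32 SE (adjusted p = 0.0476), with no overlap. Plin5, a droplet coat protein, changed by -0.81 ± 0.18 SE (adjusted p = 0.0174) and Acsl1, a long-chain acyl-CoA synthetase, by -0.74 ± 0.18 SE (adjusted p = 0.0266), each with 1 overlapping WT library, WT 24. The Pparg call was lost in every leave-one-out fit but that without WT 24, the Acsl1 call in 6 and the Plin5 call in 3 (adjusted p up to 0.116, 0.0958 and 0.0725). Plin2 and Cidec, 2 further droplet proteins, were not called, at log2 differences of -0.52 ± 0.17 SE (adjusted p = 0.0878) and -2.05 ± 0.72 SE (adjusted p = 0.152). Plin2 was called without WT 24, and DESeq2 called both (adjusted p = 0.028 and 0.0431).

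In the list of fatty acid oxidation and ketogenesis 8 of 38 genes were called, all lower, where 1.85% of all genes tested were called lower. The list median was -0.34 and 7 genes had a log2 change above 0. Left-out libraries gave 4 (without WT 7) to 16 (without WT 24) calls. Ehhadh, a bifunctional enzyme of peroxisomal oxidation, stood at 701, 614, 811 and 450.2 CPM in the WT and 367, 364, 331 and 403 CPM in the KO livers, a log2 difference of -0.81 ± 0.15 SE (adjusted p = 0.00626). Hsd17b4, another bifunctional enzyme, stood at 648, 686, 602 and 450.5 CPM in the WT and 324, 359.6, 380.3 and 324 CPM in the KO livers, a log2 difference of -0.78 ± 0.13 SE (adjusted p = 0.00321). Both had WT 24 as the WT liver nearest to KO, with no overlap. Cpt1a, the gate for entry into mitochondria, stood at 864, 671, 787 and 477 CPM in the WT and 400.3, 429, 482 and 422 CPM in the KO livers, a log2 difference of -0.69 ± 0.15 SE (adjusted p = 0.0137). WT 24 there fell inside the KO range. These 3 calls held without each library (adjusted p up to 0.0482). Acaa1b, a peroxisomal thiolase, and Hadha, of the mitochondrial trifunctional protein, changed by -0.73 ± 0.16 SE (adjusted p = 0.0154) and -0.59 ± 0.13 SE (adjusted p = 0.019), calls that were lost without WT 6 or WT 7 and without KO 4, WT 1 or WT 7. Ppara, the receptor that activates these genes, was not called, at a log2 difference of -0.49 ± 0.19 SE (adjusted p = 0.17).

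Other peroxisomal genes were looked at after their values had been seen. Abcd3, a transporter of the peroxisome membrane, stood at 901, 777, 833 and 666 CPM in the WT and 542, 529, 584 and 526 CPM in the KO livers, a log2 difference of -0.54 ± 0.14 SE (adjusted p = 0.0334). Cat, which encodes catalase, changed by -0.47 ± 0.13 SE (adjusted p = 0.0495), and Pex11a, a factor of peroxisome division, by -1.06 ± 0.28 SE (adjusted p = 0.0492). Abcd3 and Cat had groups apart, and in Pex11a WT 24 lay among the KO livers. All 3 calls were lost in 6 or 7 leave-one-out fits (adjusted p up to 0.0983, 0.153 and 0.135).

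Lipoprotein assembly and cholesterol genes showed fewer calls than the fatty acid lists. In the apolipoprotein and lipoprotein list 3 of 27 were called, all lower, with a median of -0.14. Of all genes tested, 1.85% were called lower. Mttp, the triglyceride transfer protein that loads apolipoprotein B, stood at 392, 374, 401 and 404 CPM in the WT and 250.2, 248, 258 and 267 CPM in the KO livers, a log2 difference of -0.62 ± 0.11 SE (adjusted p = 0.00432). These were among the tightest groups, well apart. Apob stood at 6456, 5962, 4935 and 5865 CPM in the WT and 2701, 3302, 4422 and 3142 CPM in the KO livers, a log2 difference of -0.78 ± 0.17 SE (adjusted p = 0.0155). KO 5 was the highest KO liver and did not reach WT 7, and the call was lost without KO 2 or KO 4 (adjusted p up to 0.0556). Smpd3, a neutral sphingomyelinase, stood at 21.1, 20.1, 29.2 and 28.0 CPM in the WT and 11.7, 15.8, 12.1 and 8.21 CPM in the KO livers, a log2 difference of -1.04 ± 0.21 SE (adjusted p = 0.0115), with groups apart. Of 30 cholesterol synthesis and uptake genes 1 was called, as lower, against the same 1.85%. The Mttp and Smpd3 calls held without each library.

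Of 29 genes of bile acid synthesis, transport and sterol export, 4 were called lower and 1 higher (1.85% and 1.34% of all genes tested were). Abcc3, a basolateral exporter of bile acids and conjugates, stood at 395, 543, 435 and 372 CPM in the WT and 212, 232, 242 and 223 CPM in the KO livers, a log2 difference of -0.94 ± 0.18 SE (adjusted p = 0.00626). No KO liver came near the WT range, and the call held without each library. Cyp8b1, the sterol 12-hydroxylase that sets the share of cholic acid, changed by -1.28 ± 0.32 SE (adjusted p = 0.0474), a call lost in every leave-one-out fit (adjusted p up to 0.118). Abcb4, the phospholipid exporter of bile, changed by -0.62 ± 0.16 SE (adjusted p = 0.0391) and Abca1, the cholesterol exporter, by -0.68 ± 0.18 SE (adjusted p = 0.0458), each lost in 6 of the 8 leave-one-out fits. Akr1c6, a hydroxysteroid dehydrogenase, rose by 0.53 ± 0.12 SE (adjusted p = 0.0226) with groups apart, and its call was lost without KO 4, KO 22, WT 6, WT 7 or WT 24. Cyp7a1, the rate-limiting enzyme of bile acid synthesis, was not called, with 73.6 to 298 CPM in WT and 62.0 to 163 CPM in KO.

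In the list of glycogen, glucose and insulin response 4 of 32 genes were called, all lower (1.85% of all genes tested were), with a median of -0.27. Pcx, or pyruvate carboxylase (chr19:4510472-4621752), which feeds gluconeogenesis and the citric acid cycle, stood at 842, 789, 831 and 777 CPM in the WT and 479, 484, 419 and 446 CPM in the KO livers, a log2 difference of -0.83 ± 0.11 SE (adjusted p = 0.00113). The gap between the lowest WT and the highest KO liver was several times the range of either group. Ppp1r3b, the subunit that brings phosphatase 1 to glycogen, stood at 377, 453, 638 and 518 CPM in the WT and 184, 112, 228 and 229.7 CPM in the KO livers, a log2 difference of -1.40 ± 0.26 SE (adjusted p = 0.00982). KO 4 was lowest and WT 1 was the WT liver nearest to KO. Pgm1, a phosphoglucomutase, stood at 309, 304, 302 and 256 CPM in the WT and 219, 199.9, 217 and 173 CPM in the KO livers, a log2 difference of -0.53 ± 0.11 SE (adjusted p = 0.0139). The calls of Pcx, Ppp1r3b and Pgm1 held without each library.

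Drug and amino acid metabolism gave 4 of 61 and 3 of 51 genes called, all lower, with medians of -0.22 and -0.15. The share called lower over all genes tested was 1.85%. Fmo5, a flavin monooxygenase, stood at 1652, 1758, 1279 and 1346 CPM in the WT and 774, 878, 914 and 904 CPM in the KO livers, a log2 difference of -0.80 ± 0.14 SE (adjusted p = 0.00432). Ugt1a1, the enzyme that conjugates bilirubin, stood at 339, 268, 254 and 212 CPM in the WT and 125, 136, 163 and 183 CPM in the KO livers, a log2 difference of -0.82 ± 0.15 SE (adjusted p = 0.00527). In both the groups were apart and the call held without each library. Ugt1a genes share their last exons, so reads of several of them may count for Ugt1a1. Cyp2f2 and Cyp4v3 changed by -0.76 ± 0.17 SE (adjusted p = 0.0175) and -0.58 ± 0.13 SE (adjusted p = 0.0185), calls lost without KO 4, WT 1 or WT 6 and without KO 2, KO 22, WT 1 or WT 6. Sardh, which breaks down sarcosine, and Uroc1, of histidine breakdown, changed by -0.70 ± 0.15 SE (adjusted p = 0.0142) and -0.56 ± 0.12 SE (adjusted p = 0.0148). Their groups did not overlap, and the calls were lost without WT 1 and without KO 4 (adjusted p = 0.052 and 0.0564). Gpt2, an alanine transaminase, changed by -0.52 ± 0.14 SE (adjusted p = 0.0459), lost in all but the fit without WT 24.

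Clock genes and hepatokine genes come next, from lists with 2 calls each, where 3.18% of all genes tested were called. Cry1 (chr10:85131700-85185064, minus strand), a repressor of the circadian clock, stood at 16.7, 18.2, 17.9 and 8.26 CPM in the WT and 5.36, 5.25, 6.98 and 6.62 CPM in the KO livers, a log2 difference of -1.33 ± 0.24 SE (adjusted p = 0.00531). WT 24 stood apart from the other WT livers but above all KO livers. The clock list had 2 of 21 members called, Cry1 and Hlf, with a median of -0.26 that became -0.04 without WT 24, where 10 of 21 members were above 0. Hlf, a clock output factor, changed by -0.62 ± 0.14 SE (adjusted p = 0.0208), a call lost without KO 4, WT 1, WT 6 or WT 7. The times of day at which livers were taken are not given in the sources used here. Cry1 is shown with the 56 bases around the E-box CACGTG, the letters that the clock activators bind, at chr10:85185084-85185139 on the minus strand (GRCm38.p6), 60 bases before its start. The letters occur before the starts of 9.46% of tested genes and 11.1% of those called lower.
Cry1: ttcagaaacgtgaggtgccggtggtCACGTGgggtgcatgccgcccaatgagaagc

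The list of growth hormone and sex-biased genes had none of 33 members called. Among hepatokines, 2 of 32 were called, 1 higher and 1 lower, where 3.18% of all genes tested were called. Enho, which encodes the peptide adropin, stood at 0.225, 0.515, 0.276 and 0.539 CPM in the WT and 2.61, 0.946, 3.02 and 3.47 CPM in the KO livers, a log2 difference of 2.68 ± 0.55 SE (adjusted p = 0.0115). KO 2, 5 and 22 were near 3 CPM and KO 4 just under 1 CPM, above all WT livers, and these are low counts. Tsku, a secreted proteoglycan made by liver, stood at 236, 267, 231 and 147 CPM in the WT and 72.0, 77.5, 90.7 and 143 CPM in the KO livers, a log2 difference of -1.20 ± 0.29 SE (adjusted p = 0.0334). KO 22 nearly reached WT 24, and the call was lost without KO 2, 4 or 5 or without WT 1, 6 or 7 (adjusted p up to 0.112). Sulf2, which trims heparan sulfate on the cell surface, stood at 47.5, 40.7, 43.4 and 38.1 CPM in the WT and 11.9, 23.7, 13.6 and 17.7 CPM in the KO livers, a log2 difference of -1.34 ± 0.23 SE (adjusted p = 0.00473). Its groups were far apart and the call held without each library.

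Some lists gave few or no calls, where 3.18% of all genes tested were called. None of 42 matrix and fibrosis genes and none of 33 cell cycle genes was called, by edgeR, with medians of 0.03 and 0.48, and DESeq2 called 0 and 2. The matrix median ran from -0.13 to 0.20 with 1 library left out. The cell cycle median was 0.17 without KO 5 and 0.78 without KO 22, and the list summed to 415 CPM in KO 5, against 182 to 280 CPM in the other KO livers and 174 to 208 CPM in WT. In the list of endoplasmic reticulum stress 1 of 31 genes was called, Creld2, a secreted chaperone, at a log2 difference of 0.86 ± 0.23 SE (adjusted p = 0.0388). The heat shock list had more calls, with 1 of 23 tested members higher, Hspe1, and 3 lower, Bag3, Hspd1 and Hspa4. Hspe1 and Hspd1, partners in the mitochondrial chaperonin, changed in opposite directions, by 0.68 ± 0.17 SE (adjusted p = 0.0305) and -0.45 ± 0.12 SE (adjusted p = 0.0459). All 5 of these calls were lost in 4 or more leave-one-out fits. The Hspe1 call was also lost with the length trend removed. The Hspd1 call was also lost with RLE scaling, with no filter on low counts and in the fit to the 8 libraries compared. In simulated data of the same size, 62% of genes changed 2-fold and 11% of those changed 1.5-fold were recovered, so that lists with few calls may hold smaller changes. The simulation changed 100 genes at each fold, all with a mean of at least 1 CPM. It gave 77 calls, against 560 in the data, so its recovery may differ from that of the real comparison.

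At room temperature, in other mice, 15 genes were called (0.0853% of 17594), 12 lower (0.0682%) and 3 higher (0.0171%), with 1799 (10.2%) at an unadjusted p under 0.05. DESeq2 called 203 (1.15%). Of the 560 genes called at thermoneutrality, 8 were called there too by edgeR, all lower at both temperatures, and they were looked at after their values had been seen. They were Agt, Smpd3, Slc6a9, Ermp1, Clstn3, Cntnap1, Impad1 and the predicted gene Gm47528. Slc6a9, a glycine transporter (chr4:117834506-117875198), stood at 46.8, 61.8, 59.6 and 52.2 CPM in the WT and 31.4, 32.2, 30.2 and 33.4 CPM in the KO livers at thermoneutrality, a log2 difference of -0.79 ± 0.13 SE (adjusted p = 0.00321), with groups apart, and changed by -0.72 at room temperature (adjusted p = 0.0325). Ermp1, a peptidase of the endoplasmic reticulum, changed by -0.87 ± 0.17 SE (adjusted p = 0.00997) and by -0.92 (adjusted p = 0.0445). Smpd3 changed by -1.57 at room temperature (adjusted p = 0.00337). At thermoneutrality the calls of Clstn3, Cntnap1 and Impad1 were lost without some libraries (adjusted p up to 0.0863, 0.148 and 0.142).

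The direction at room temperature matched in 478 of the 560 genes (85.4%), in 184 of 235 higher genes (78.3%) and in 294 of 325 lower genes (90.5%), against 60.9% of all genes tested. The median log2 change of the higher genes was 0.86 at thermoneutrality and 0.24 at room temperature, and that of the lower genes -0.62 and -0.26. These genes were chosen for their change at thermoneutrality, so a smaller value in other mice follows in part from the choice. In the ribosomal protein list the median at room temperature was 0.22, and in the interferon list it was -0.05. Marker medians there were -0.34 for Kupffer cells and other macrophages, -0.58 for neutrophils and -0.27 for T and NK cells. They were -0.38 for lipid-associated macrophages and monocytes, 0.58 for B and plasma cells and 0.01 for dendritic cells. Vsig4, Ighm and S100a8, the called markers of immune cells, were all below 0 at room temperature.

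A test of the difference itself, the interaction of genotype and temperature in edgeR, called 0 of 17594 genes, with a lowest adjusted p of 0.399. An unadjusted p under 0.05 was found for 1290 genes (7.33%), where chance alone gives 880, and DESeq2 called 17 (0.0966%). No gene is therefore shown by edgeR to respond differently at the 2 temperatures. Cry1 changed by -1.33 at thermoneutrality and 0.21 at room temperature, Serpina3g by 2.36 and -0.13, and Wfdc17 by 1.97 and 0.32. Other immune genes were below 0 at room temperature. Saa3 had 1.94 and -1.16, Ptpn18 2.00 and -0.83, Ms4a4b 2.00 and -0.77, and S100a8 2.42 and -0.56. Enho had 2.68 and 2.13, and Rnase4 1.30 and 0.81. Cd36 had -1.10 and -1.11.

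**Figure D5:**
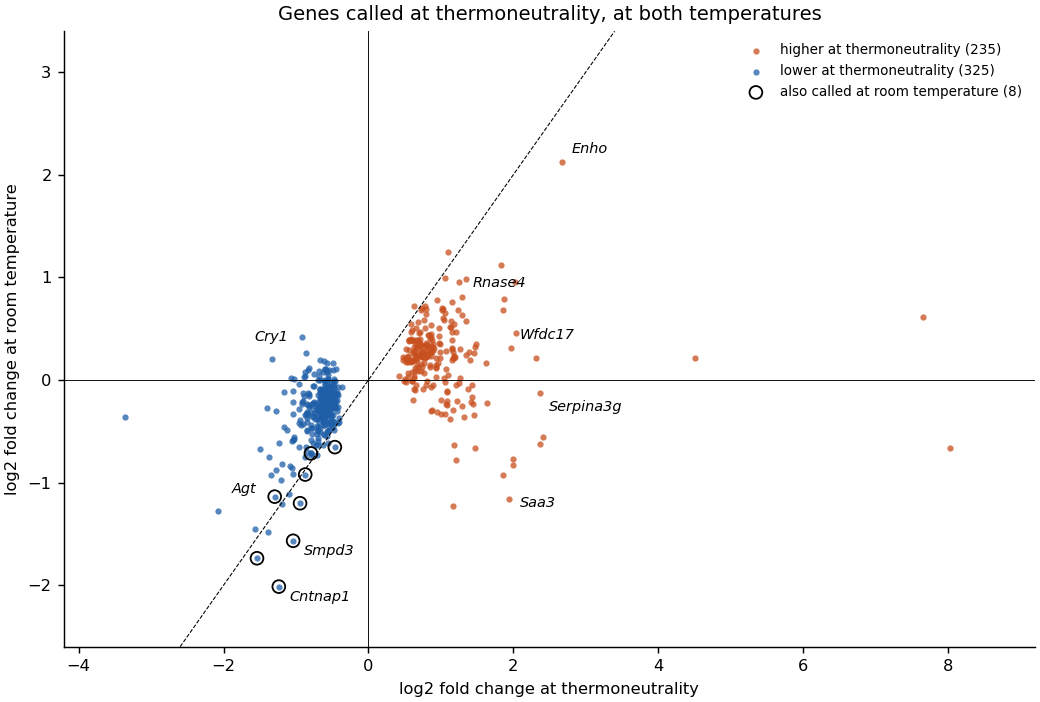
The log2 fold change KO minus WT of the 560 genes called at thermoneutrality, at thermoneutrality (horizontal axis) and at room temperature (vertical axis), with equal values on the dashed line and the 8 genes called at both temperatures circled. Most points lie nearer to 0 on the vertical axis than on the horizontal one, and the circled genes lie in the lower left.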

How the data were processed

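RNA from liver was sequenced by the submitters, who deposited raw counts per gene for each library. Per the submitters' processing notes the tools named are fastp, STAR 2.6.1d and featureCounts 1.5.0-p3 and the builds GRCm38 and mm10, with the strand setting and annotation not given in the sources used here. Of 56748 Ensembl identifiers, 52073 (91.8%) matched GENCODE M21, from which names, GRCm38 coordinates and exon lengths were taken. The other identifiers, partly newer than M21, were kept by their identifier.

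The 16 liver libraries were fitted together in R 4.3.3 with edgeR 4.0.16 (TMM, filterByExpr at its minimum count of 10, robust quasi-likelihood F tests, 1 mean per group, two-sided, Benjamini-Hochberg over 17594 genes, threshold 0.05). The contrasts were KO minus WT at each temperature and their interaction. The labels call the libraries biological replicates. Pairs of libraries of a group differed by more than sampling noise, so none was counted as a duplicate. List sums use plain library totals. Promoter sequences are those of RefSeq for GRCm38.p6, as 32851 windows of 300 bases.

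The members, the 23 gene lists, the marker lists and the rule for named genes were chosen with earlier results of these data known. The rule took Agt, the 12 called genes of greatest change in each direction (mean of at least 1 CPM, groups apart, symbols not of the Gm or Rik type), the 6 most abundant called genes in each direction, up to 6 called genes per list, and 9 fixed lipid genes. A few of the genes so selected are left out of the text. Alternatives were RLE scaling, 2 other filters on low counts, DESeq2 1.42.0, a fit to the 8 libraries compared, leaving out each library, and, added after seeing the data, removal of each library's lowess trend (span 0.3) of log2 level with exon length. The fit was tested on simulated data.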

Additional observations from a re-analysis of the deposited data

Results flagged for a closer look

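Several of the named genes had a single library at a distance from the other 3 of its group that exceeded Dixon's critical value for 4 values. Sult2a8, a sulfotransferase, had 862 CPM in WT 1 against 541 to 562 CPM in the other WT livers. Fbxo40, which encodes an F-box protein, had 1.92 CPM in KO 4. Cry1 had 8.26 CPM and Pgm1 256 CPM in WT 24. Such a gap arises by chance in about 1 of 20 groups, and 232 groups were examined.

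Gimap3, a GTPase of lymphocytes, had all KO livers above all WT livers at thermoneutrality and all below at room temperature, with an interaction of 2.79 on the log2 scale. By edgeR this interaction had an adjusted p of 0.399, which misses the threshold.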

How the results depend on the processing

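At thermoneutrality, leaving out 1 library at a time gave 178 (without KO 4) to 497 (without KO 5) calls, against 560 with all. The split moved from 235 higher and 325 lower to 195 and 163 without KO 2, and to 148 and 317 without WT 24. DESeq2 called 1111 genes, 557 of them among the 560. RLE scaling, both other filters, the fit to 8 libraries and removal of the length trend gave 487 to 654 calls. At room temperature DESeq2 called 203 genes, the filter of 1 CPM in 4 libraries 9, no filter 25, and fits without 1 library 4 to 19, against 15. The interaction had 0 calls in every edgeR fit, leave-one-out included, and 17 with DESeq2. Of 90 called genes named by the rule, 35 kept their call without each of the 8 thermoneutral libraries, while 48 lost it without KO 4 and 44 without WT 6. Removal of the length trend lost 18 of the 90, no filter 12, the 8-library fit 11 and RLE scaling 8, and none changed direction in any fit. The cause of these losses was not tested.

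No paired analysis was possible because the KO and WT livers at thermoneutrality share no replicate number. With 4 libraries per group the simulated fit, which gave 77 calls in all, recovered 11% of 1.5-fold changes. The unnamed and mitochondrial shares of the counts differed by genotype, and their part in the results was not tested.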
